A study of Homo sapiens with 8 samples.

Results

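The homeobox genes OTX1, OTX2, GBX1 and GBX2 were followed over 8 transcriptome libraries of differentiating human ESI017 cells. They were taken by gene symbol from the deposited table and are 4 of its 35940 symbols, each with a single Ensembl row. OTX and GBX proteins are homeodomain transcription factors. In the vertebrate neural plate OTX2 marks the forebrain and midbrain and GBX2 marks the anterior hindbrain. The domains repress each other, and the midbrain-hindbrain boundary, or isthmus, forms where they meet. OTX2 is also expressed in primed pluripotent stem cells, before any neural pattern exists.

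All libraries came from wild type cells of ESI017, an established line of human embryonic stem cells, so every value belongs to a single line. The cells were differentiated in N2B27 medium with SB at 10 μM and LDN at 100 nM, and WNT3A protein was added at 300 ng/mL at 34 h. The 34 h libraries were taken at the time of the addition, and the 42, 50 and 72 h libraries 8, 16 and 38 h after it. Each of the 4 time points had 2 libraries, named replicate 1 and replicate 2, which the labels give as independent biological replicates and also number as batches. A group without WNT3A was not analysed here, so elapsed time and WNT3A cannot be told apart in any comparison with 34 h.

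Levels are TPM, a share of transcripts scaled by their length, so levels may be compared between genes. Each library summed to 1000000 TPM, its read depth is unknown, and between 13860 and 14004 gene symbols reached 1 TPM. Checked against the labelled cell type, POU5F1, the central pluripotency factor, had 1165 and 1152 TPM at 34 h. In these bulk libraries fewer cells expressing a gene and less RNA per cell cannot be told apart.

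OTX2 and GBX2 moved in opposite directions, and the sequences around their transcript starts are printed because they differ in base composition. RefSeq gives 1 such window for GBX2 and 2 for OTX2, each from 250 bases before to 50 bases after a transcript start, on GRCh38.p14 and read 5′ to 3′ on the minus strand. The windows are chr2:236168337-236168636 for GBX2, chr14:56810430-56810729 for the upstream OTX2 start and chr14:56805618-56805917 for the downstream OTX2 start. Capitals mark CCAAT or its reverse complement.
GBX2: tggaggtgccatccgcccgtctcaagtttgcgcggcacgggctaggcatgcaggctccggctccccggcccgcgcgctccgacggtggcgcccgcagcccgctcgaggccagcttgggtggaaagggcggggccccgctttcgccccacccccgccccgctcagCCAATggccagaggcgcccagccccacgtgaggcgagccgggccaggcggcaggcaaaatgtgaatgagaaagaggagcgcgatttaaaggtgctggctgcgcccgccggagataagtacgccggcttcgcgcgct
OTX2 upstream start: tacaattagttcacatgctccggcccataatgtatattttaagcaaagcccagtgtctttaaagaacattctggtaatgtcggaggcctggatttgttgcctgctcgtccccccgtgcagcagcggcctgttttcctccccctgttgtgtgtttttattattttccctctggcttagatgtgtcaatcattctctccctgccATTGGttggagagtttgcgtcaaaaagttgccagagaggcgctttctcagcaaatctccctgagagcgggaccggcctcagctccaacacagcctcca
OTX2 downstream start: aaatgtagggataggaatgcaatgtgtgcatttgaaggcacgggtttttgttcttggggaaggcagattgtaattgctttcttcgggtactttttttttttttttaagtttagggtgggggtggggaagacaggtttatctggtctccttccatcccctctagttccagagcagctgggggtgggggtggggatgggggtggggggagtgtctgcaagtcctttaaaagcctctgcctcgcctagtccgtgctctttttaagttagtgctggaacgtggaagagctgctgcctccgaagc
The GBX2 window had 71.3% G and C with 36 CpG dinucleotides. The OTX2 windows had 49.7% with 9 CpG (upstream) and 50.3% with 6 CpG (downstream). The median of all 35116 RefSeq windows of this length was 58.7% with 14 CpG, so GBX2 lay above it and OTX2 below it on both measures. The OTX1 and GBX1 windows, at 69.7% and 73.3% with 34 and 36 CpG, were of the GBX2 kind. All 4 genes had a window in the table.

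A search on both strands for TAATCC (a site of OTX-type homeodomains), TAATTA (a general homeodomain site, the same on both strands) and CTTTGAA or CTTTGAT (TCF/LEF-type sites) found none of these words in the 5 windows of the 4 genes. They occur in 6.36%, 4.84%, 4.43% and 2.62% of all windows. CCAAT, which does not overlap any of these words, was present 1 time in the GBX2 window, 1 time in the upstream OTX2 window and 2 times in the OTX1 window, and in 34.6% of all windows. The CCAAT of GBX2 began at position -86 and that of OTX2 at position -48, counting -1 as the base before the start. The table holds gene totals, so the use of either OTX2 start was not measured.

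OTX2 was the member that led at 34 h and fell within 8 h of the addition. OTX2 (ENSG00000165588, GRCh38 chromosome 14, 56799905 to 56810479, minus strand, protein coding) had 168 and 151 TPM in replicates 1 and 2 at 34 h. The later levels were 40.3 and 48.8 (42 h), 33.0 and 50.5 (50 h) and 31.8 and 38.8 TPM (72 h). Every later library lay below both 34 h libraries. The 50 h range overlapped those of 42 h and 72 h, and both 72 h libraries lay below both 42 h libraries. Within a replicate, OTX2 at 42 h was 24.0% and 32.3% of its own 34 h level, and at 72 h it was 19.0% and 25.7%. A remainder of OTX2 transcript was thus present in every library to the end of the course. By rank of level, OTX2 stood at 851 and 904 among the gene symbols of the 34 h libraries and at 4715 and 3924 at 72 h.

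Genes reaching 1 TPM in 2 or more libraries were tested with limma on log2(TPM + 1), and 14908 genes passed. Changes below are on that scale, which understates the change of low genes, and a gene was called at a Benjamini-Hochberg adjusted p under 0.05 over all of them. At 42 h against 34 h, 2 of the 3 tested members were called, OTX2 lowered and GBX2 raised, where 2.58% of all tested genes were called, 1.78% raised and 0.792% lowered. The log2 change of OTX2 was -1.82 ± 0.20 (SE; limma adjusted p 0.00256, n = 2 per time point), the 20th largest fall in the table. At 50 h and 72 h the same 2 members were called, with 6.26% of all genes called at 50 h (3.52% raised, 2.74% lowered) and 24.0% at 72 h (12.7% raised, 11.3% lowered). These are 525 raised and 408 lowered genes at 50 h and 1900 and 1678 at 72 h. The majority turned under rescaling by trimmed means of log ratios (TMM), with 461 raised and 497 lowered at 50 h and 1588 and 1961 at 72 h, and under quantile normalization, with 466 and 474, then 1638 and 1796. OTX2 stood at -1.94 ± 0.20 and -2.15 ± 0.20 (limma adjusted p 0.00110 and 0.000218). Its place among falls went to 41 at 50 h and 156 at 72 h, as other genes fell further.

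GBX2 was close to the filter limit at 34 h and was among the most raised genes at every later time. GBX2 (ENSG00000168505, chromosome 2, 236165236 to 236168369, minus strand, protein coding) had 1.31 and 1.21 TPM at 34 h. The later levels were 102 and 85.9 (42 h), 132 and 97.8 (50 h) and 112 and 119 TPM (72 h). The lowest later library was far above both 34 h libraries. The 50 h range overlapped those of 42 h and 72 h, and both 72 h libraries lay above both 42 h libraries. Within a replicate the level at 42 h was 77.4 and 70.9 times that at 34 h, at 50 h 100.3 and 80.7 times, and at 72 h 85.3 and 97.9 times. The log2 changes against 34 h were 5.38, 5.66 and 5.68, each ± 0.16 (limma adjusted p 1.93e-06, 1.28e-06 and 1.24e-06). By size of rise GBX2 was number 2 of 14908 genes at 42 h, number 2 at 50 h and number 4 at 72 h. In GENCODE release 29 an antisense gene, AC019068.1, overlaps GBX2. It is not a row of the table, and whether strand was used in the counting is not given in the sources used here, so reads of that gene cannot be told apart from GBX2.

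**Figure D1:**
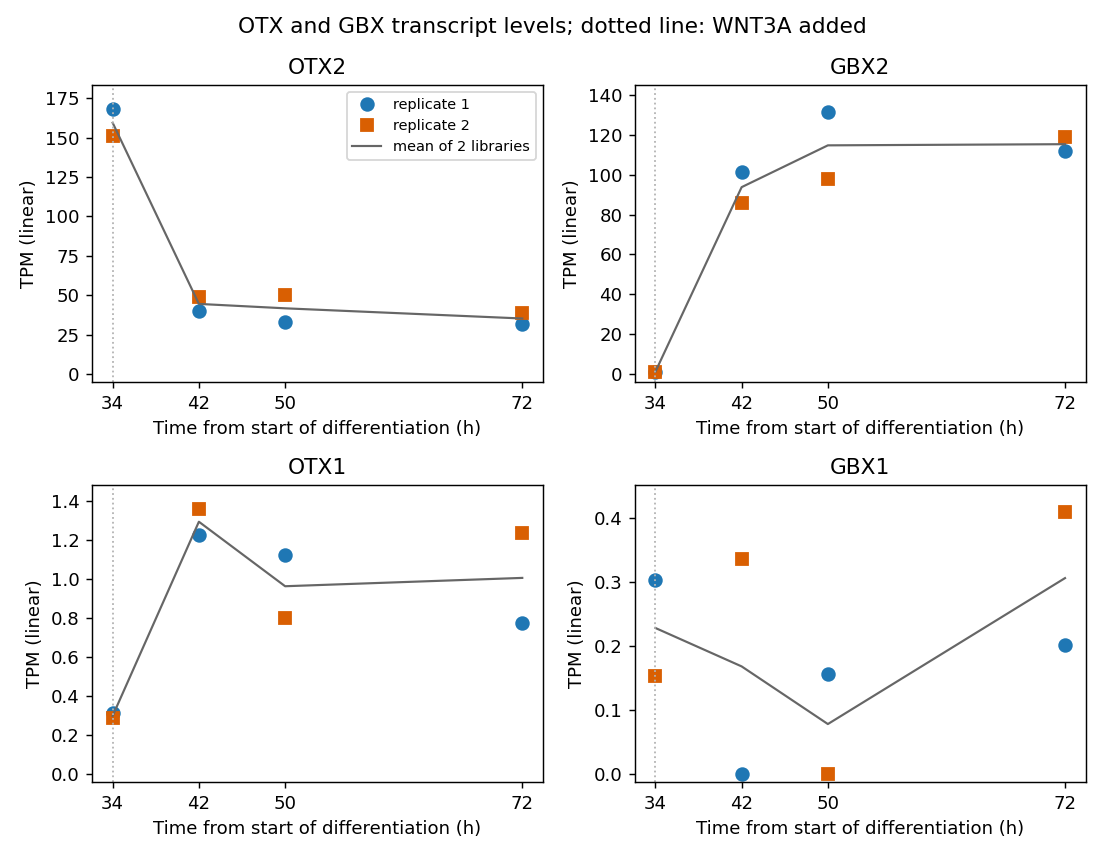
Transcript level of OTX2, GBX2, OTX1 and GBX1 in TPM (linear axis, different in each panel) against time from the start of differentiation, with circles for replicate 1, squares for replicate 2, a line through the means of 2 libraries and a dotted line at the addition of WNT3A. OTX2 drops from above 150 TPM to 50.5 TPM or less while GBX2 goes from about 1 TPM to 85.9 TPM or more, and OTX1 and GBX1 stay under 1.4 TPM.

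Neither gene was called between neighbouring times after 42 h, and 72 h was not tested against 42 h. In the intervals 42 to 50 h and 50 to 72 h, 0 of the 3 tested members were called by limma, and 0 had an unadjusted p under 0.05. Over all genes 0.0939% were called in the former (0.0604% raised, 0.0335% lowered) and 7.33% in the latter (2.92% raised, 4.41% lowered). The former is 14 genes, 9 raised and 5 lowered, and after TMM rescaling it was 9 raised and 10 lowered, after quantile normalization 9 and 11. The difference of OTX2 was -0.12 between 42 h and 50 h (95% interval -0.58 to 0.35) and -0.21 between 50 h and 72 h (-0.67 to 0.25). The difference of GBX2 was 0.28 (-0.08 to 0.63) and 0.02 (-0.33 to 0.38). These intervals do not show the levels to be equal.

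The early timing of both genes was compared with that of other genes by the share of the 72 h change already present at 42 h, a measure chosen after the values were seen. For OTX2 the share was 84.7% (85.9% and 83.3% within the replicates) and for GBX2 94.7% (97.5% and 92.0%). The median share was 26.0% over the 1678 genes lowered at 72 h and 26.4% over the 1900 raised. Of the lowered genes 73, or 4.35%, had a share as high as OTX2, and of the raised genes 111, or 5.84%, had a share as high as GBX2. The 5 pluripotency genes called lowered at 72 h had lower shares, with 9.75% for POU5F1, 15.1% for the NODAL co-receptor TDGF1, 27.7% for ZFP42, 34.2% for DPPA4 and 39.3% for FGF2. The 8 WNT feedback and target genes called raised at 72 h spread to both sides of OTX2 and GBX2. The shares were 46.5% for TNFRSF19, 54.9% for ZNRF3, 83.9% for NKD1, 96.2% for SP5 and 99.8% for RNF43. AXIN2, LEF1 and TCF7, with 125%, 132% and 171%, were above their 72 h level at 42 h. No test was made of the shares.

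**Figure D2:**
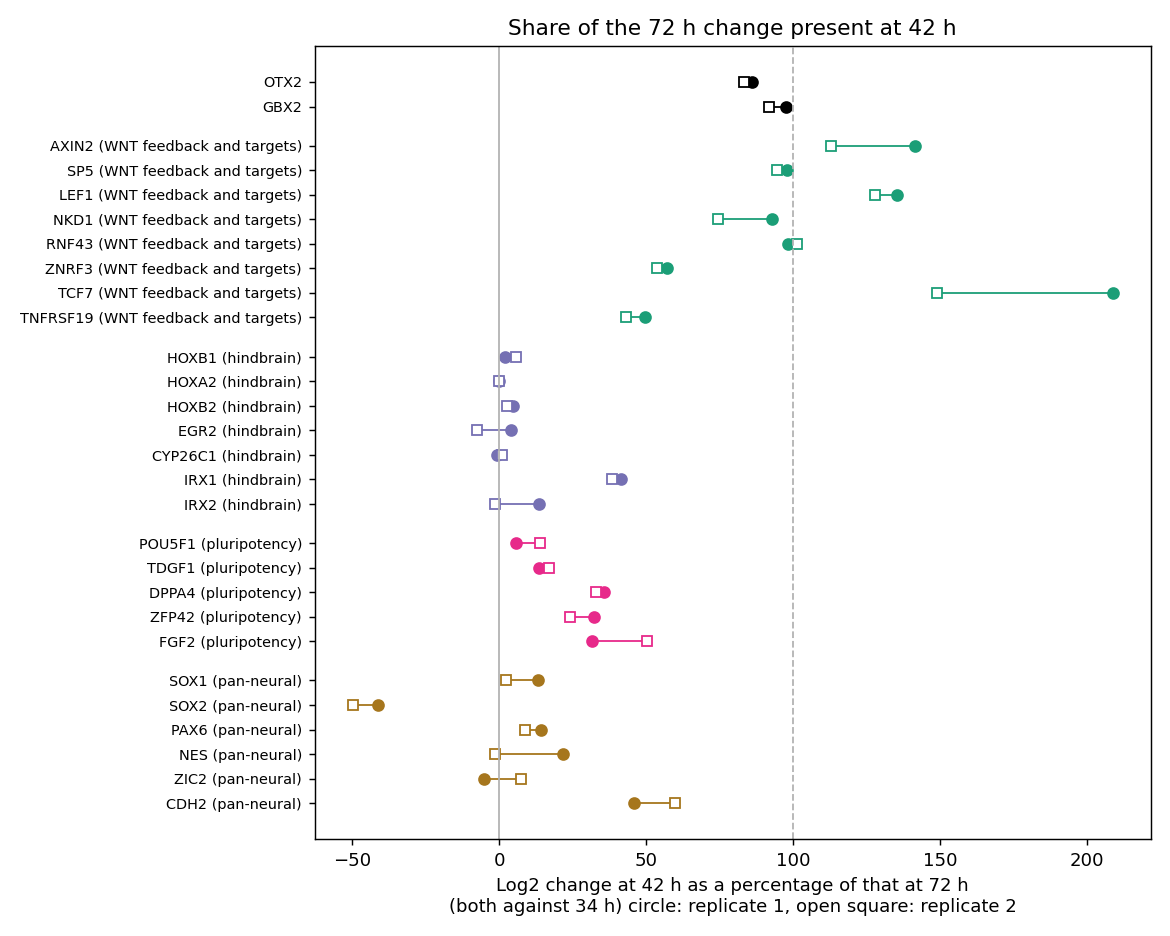
Log2(TPM + 1) change at 42 h as a percentage of the change at 72 h, both against 34 h, within replicate 1 (circles) and replicate 2 (open squares), for OTX2, GBX2 and genes of 4 lists that were called at 72 h. The dashed line marks 100%; OTX2 and GBX2 lie between 83.3% and 97.5%, near SP5 and RNF43, and POU5F1 and TDGF1 lie at 17.0% or less.

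OTX1, the paralog of OTX2, was low throughout, and no later library was below its 34 h level. OTX1 (ENSG00000115507, chromosome 2, 63050057 to 63057836, plus strand, protein coding) had 0.311 and 0.284 TPM at 34 h, then 1.23 and 1.36 (42 h), 1.12 and 0.800 (50 h) and 0.775 and 1.23 TPM (72 h). It reached 1 TPM in 4 of the 8 libraries. All 6 later libraries were above both 34 h libraries, a pattern that 11.8% of tested genes showed, as did GBX2. Another 9.22% showed the opposite, as OTX2 did, 21.1% in either direction. The log2 changes against 34 h were 0.82, 0.59 and 0.62, each ± 0.26, and none was called (limma adjusted p 0.186, 0.240 and 0.119; unadjusted p 0.0122, 0.0490 and 0.0416). With a variance that did not follow the mean level the 72 h change passed (limma adjusted p 0.0319; the alternatives gave 0.0319 to 0.380). OTX1 made up 0.185% and 0.188% of the summed OTX1 and OTX2 level at 34 h and between 1.56% and 3.29% later.

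GBX1, the paralog of GBX2, stayed near zero. GBX1 (ENSG00000164900, chromosome 7, 151148589 to 151174745, minus strand, protein coding) had 0.304 and 0.153 TPM at 34 h, then 0 and 0.337 (42 h), 0.156 and 0 (50 h) and 0.202 and 0.411 TPM (72 h). It reached 1 TPM in 0 libraries, so it was not among the tested genes. Every pair of time points overlapped except 50 h and 72 h, where both 72 h libraries were higher. Without the filter its log2 changes against 34 h were -0.08, -0.19 and 0.09 (limma adjusted p 0.950, 0.656 and 0.814). In order of mean level the members at 34 h were OTX2, GBX2, OTX1 and GBX1, the last pair at 0.298 ± 0.0190 and 0.229 ± 0.107 TPM (SD, n = 2), which overlapped. At 42, 50 and 72 h the order was GBX2, OTX2, OTX1 and GBX1, with no overlap between neighbours at any of these times. CRX, a further OTX-type gene known from retina and pineal gland, had at most 0.654 TPM in a library, and the OTX2 pseudogene OTX2P1 was listed at 0 in all 8.

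By the moderated F-test of limma over the 3 contrasts with 34 h, OTX2 and GBX2 changed over the course (adjusted p 0.000698 and 2.53e-06) and OTX1 did not pass (0.167), with 17.4% of all genes called.

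The ratio of OTX2 to GBX2 within a library was above 1 at 34 h and below 1 at all later times. It was 128 and 124 at 34 h, then 0.397 and 0.568 (42 h), 0.251 and 0.516 (50 h), and 0.284 and 0.327 (72 h). OTX2 exceeded GBX2 in both 34 h libraries, and GBX2 exceeded OTX2 in all 6 later libraries, by between 1.76 and 3.98 times. As log2((OTX2 + 1)/(GBX2 + 1)) the mean was 6.15 ± 0.06 at 34 h, -1.06 ± 0.36 at 42 h, -1.45 ± 0.72 at 50 h and -1.69 ± 0.14 at 72 h (SD, n = 2). The 3 later means were closer to each other than the spread between the 50 h libraries. With all members summed, (OTX1 + OTX2) against (GBX1 + GBX2), the means were 6.01, -1.02, -1.42 and -1.65.

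Of 4 log ratios, each was tested by 2 exact permutation tests over libraries, 8 tests in all. For 34 h against the 6 later libraries the OTX2 to GBX2 ratio had p = 0.0357 (exact, two-sided), the smallest p that 2 against 6 libraries allow, and 0.0714 after adjustment over the 8 tests. The F statistic over the 4 time points had an exact permutation p of 0.0762 (adjusted 0.0871), where 0.00952 was the smallest possible. The ratio of all OTX to all GBX gave the same p-values. None of the 8 tests passed after adjustment.

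The paralogs were compared within each library in the same way. The log2 ratio of OTX1 to OTX2 was -6.95 ± 0.09 at 34 h, -4.31 ± 0.13 at 42 h, -4.42 ± 0.59 at 50 h and -4.18 ± 0.04 at 72 h (SD, n = 2). Every later library was higher than both 34 h libraries, with an exact permutation p of 0.0357 (adjusted 0.0714) against the later libraries and 0.124 (adjusted 0.124) over the 4 time points. The log2 ratio of GBX1 to GBX2 went from -0.88 ± 0.08 at 34 h to -6.35 ± 0.46 at 42 h and -6.48 ± 0.10 at 72 h. Its exact permutation p-values were 0.0357 and 0.0762 in the same pair of tests (adjusted 0.0714 and 0.0871). With 1 TPM added to both genes and GBX1 under 1 TPM in every library, this ratio mostly followed GBX2 alone.

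**Figure D3:**
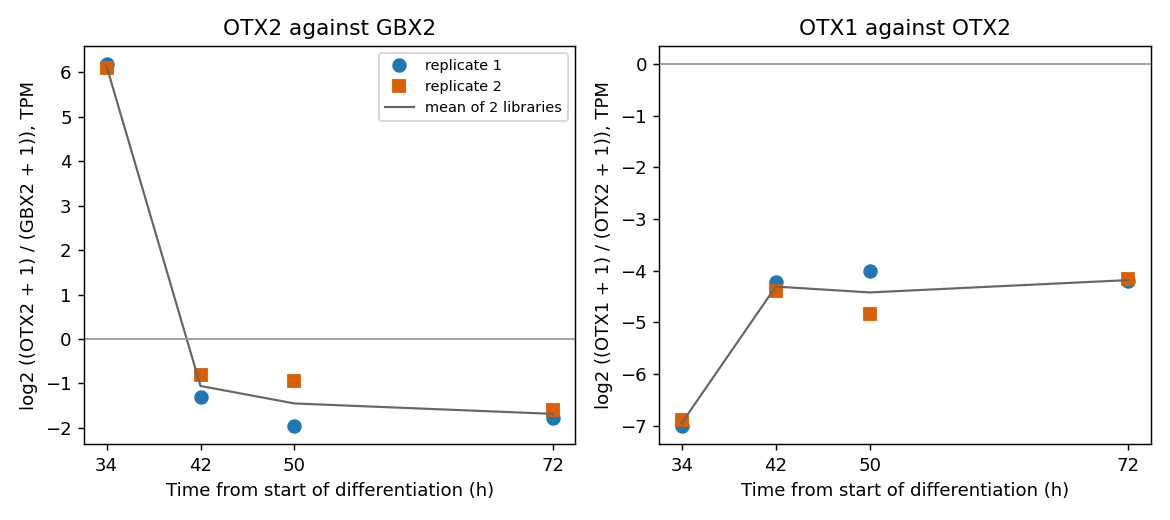
Log2 ratio of OTX2 to GBX2 (left) and of OTX1 to OTX2 (right), each with 1 TPM added to both genes, against time; circles are replicate 1, squares replicate 2, and the line joins the means of 2 libraries. The OTX2 to GBX2 ratio goes from above 6 to below 0 by 42 h, and the OTX1 to OTX2 ratio goes from about -7 to about -4; the replicates lie farthest apart at 50 h.

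At 42 h and 50 h replicate 1 had the lower OTX2 and the higher GBX2 level. The summed level of 9 WNT feedback and target genes was also higher in replicate 1 at these times, with 446 against 396 TPM at 42 h and 521 against 396 TPM at 50 h. SP5, a transcription factor induced by WNT signalling, had 226 and 149 TPM at 50 h. At 72 h replicate 2 had the higher level of both OTX2 and GBX2 and the higher sum, 502 against 443 TPM. The part of this difference in the OTX2 and GBX2 values was not tested.

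The genes whose courses were nearest to each member were taken from genes with a mean of at least 5 TPM at some time, by the root mean square difference over the 8 libraries of log2 values relative to the gene's own 34 h mean. For OTX2, out of 11539 genes, these were SEMA6D, a guidance semaphorin (0.25), HMOX1, heme oxygenase 1 (0.31), ADGRG2, an adhesion receptor (0.35), TSHZ3, a zinc finger factor (0.38), and ECEL1P1, a pseudogene of ECEL1 whose reads may be shared with its parent gene (0.40). HMOX1 was the most abundant of them, with 56.5 and 53.3 TPM at 34 h, then 16.6 and 15.4 (42 h), 13.1 and 10.8 (50 h) and 15.4 and 12.4 TPM (72 h). The 72 h log2 differences of these 5 genes from 34 h lay between -1.91 and -2.69. The genes were chosen by these same values, so no test is given.

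GBX2 had no course as near to it. Its 5 nearest were NKD1, a feedback inhibitor of WNT signalling (0.75), WLS, the carrier of secreted WNT ligands (1.01), FST, follistatin (1.04), GAD1, a GABA synthesis enzyme (1.31), and SP5 (1.47). WLS had 3.41 and 2.17 TPM at 34 h, then 50.8 and 38.6 (42 h), 130 and 102 (50 h) and 113 and 139 TPM (72 h). GAD1 reached 48.0 and 43.5 TPM (42 h) and 47.9 and 44.8 TPM (50 h). At 72 h it had 11.9 and 21.2 TPM, a difference from 50 h that did not pass (limma adjusted p 0.0537). For OTX1 the nearest was VCAN, the matrix proteoglycan versican (0.11), which went from 163 and 150 TPM (34 h) to 283 and 323 TPM (42 h), followed by EEF1AKMT1, TSPAN5, A4GALT and SIRPA (0.12 to 0.14). With OTX1 itself at about 1 TPM, its nearness to genes of far higher level rests on small log2 changes.

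**Figure D4:**
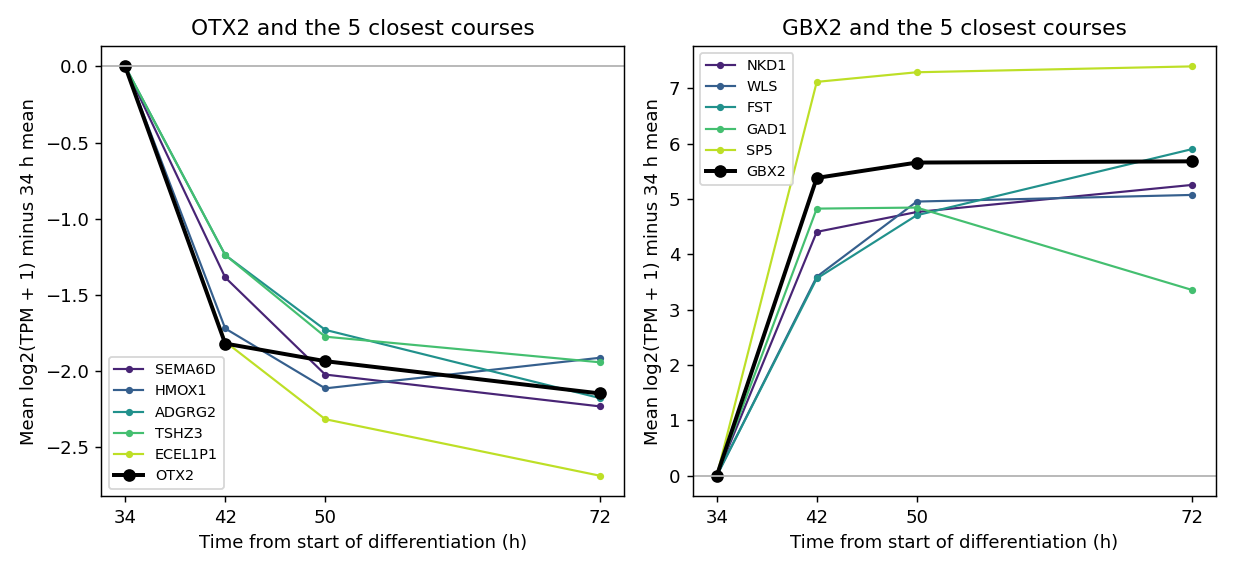
Mean log2(TPM + 1) of 2 libraries minus the gene's 34 h mean, against time, for OTX2 (left) and GBX2 (right) in black and for the 5 genes nearest to each in color. The OTX2 group falls to between -1.24 and -1.82 at 42 h; the GBX2 group is spread from 3.57 to 7.12 at 42 h.

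OTX2 acts in the anterior neural plate, for which 13 further genes were listed. Of their 6 tested members 1 was raised and 0 lowered at 42 h, 1 raised and 1 lowered at 50 h, and 1 raised and 2 lowered at 72 h, with a median log2 change at 42 h and 72 h of 0.13 and -0.32 against 0.01 and 0.06 for all tested genes. The summed level went from 80.0 to 99.2 TPM at 34 h to 33.9 to 42.3 TPM at 72 h, and most of that sum was FEZF1 and LHX5. FEZF1, a forebrain zinc finger repressor, was lowered as OTX2 was, with 53.3 and 47.6 TPM at 34 h, then 15.7 and 23.8 (42 h), 15.9 and 26.9 (50 h) and 9.41 and 16.5 TPM (72 h). By 72 h it was lowered (log2 difference -1.93 ± 0.32, limma adjusted p 0.00362), but the 42 h difference of -1.34 ± 0.32 did not pass (0.0821). With the replicate number as a block in the fit FEZF1 passed at 42 h and at 50 h, and the list then had 1 raised and 1 lowered gene at 42 h and 1 raised and 3 lowered at 50 h, against 1 and 1 at 50 h without the block. LHX5, a factor of the forebrain, was the other gene lowered at 72 h (limma adjusted p 0.0146), and that call was lost without 34 h replicate 1 (0.0694) and without either 72 h library (0.0689 and 0.0783). The gene lowered at 50 h was HESX1, a forebrain homeobox repressor, with 9.46 and 8.66 TPM at 34 h, then 2.44 and 2.39 (42 h), 1.19 and 3.93 (50 h) and 4.36 and 4.43 TPM (72 h). All 6 later libraries lay below both 34 h libraries, as for OTX2. The 42 h difference of -1.56 ± 0.33 did not pass (limma adjusted p 0.0563). The 50 h call (-1.61 ± 0.33, limma adjusted p 0.0275) was lost without the filter (0.0882), with the compared times alone (0.130), without either 34 h library (0.139 and 0.128) and without either 72 h library (0.0578 and 0.0573). The raised gene at 42 h and 50 h was LHX2, a forebrain and eye field factor at no more than 3.50 TPM. Its call at 42 h (limma adjusted p 0.0257) was lost without 34 h replicate 2 (0.160), without either 42 h library (0.106 and 0.153) and without either 72 h library (0.0510 and 0.0513). Its call at 50 h (0.0219) was lost without 34 h replicate 2 (0.128), without either 50 h library (0.112 and 0.0717) and with the compared times alone (0.0853). DMBX1, a paired-type homeobox gene known from the midbrain, was raised at 72 h. It went from 0.612 and 0.433 TPM (34 h) to 3.13 and 5.13 TPM (72 h; log2 change 1.73 ± 0.28, limma adjusted p 0.00335).

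Genes of the midbrain-hindbrain boundary were mostly at low levels. Of 12 listed genes 6 were tested, and 1 was called at each time against 34 h, each raised, with median log2 changes of 0.46 (42 h), 0.98 (50 h) and 0.42 (72 h). At 42 h and 50 h it was FGF18, a ligand of the FGF family, with 0.664 and 0.434 TPM at 34 h, then 8.53 and 5.72 (42 h), 4.95 and 5.12 (50 h) and 0.956 and 1.21 TPM (72 h). At 72 h it was PAX2, an early boundary factor, with 0 and 0.0664 TPM at 34 h, then 4.79 and 0.958 (42 h), 4.28 and 1.84 (50 h) and 2.85 and 3.59 TPM (72 h). That call of PAX2 (2.03 ± 0.49, limma adjusted p 0.0209) was lost without the filter on low values (0.0580) and when any single library of 34 h or 72 h was left out (0.0782 to 0.107), and the alternatives gave 0.00339 to 0.107. With the replicate number as a block in the fit PAX2 was also raised at 50 h, so 2 genes of the list were called then. FGF8, the signal of the isthmic organizer, stood at 7.25 and 7.89 TPM (34 h) and 10.1 and 10.7 TPM (72 h), with no call. EN1 and WNT1, further boundary genes, had at most 0.515 and 0.382 TPM in a library, and EN2 was listed at 0 in 7 of 8 libraries.

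GBX2 marks the anterior hindbrain, and most genes of the hindbrain list were first called at 72 h. Of its 9 tested genes 8 were raised by 72 h and none was lowered by limma against 34 h, and its median log2 change was 0.10 (42 h), 0.51 (50 h) and 2.98 (72 h). IRX1 and IRX3, homeobox genes of the neural plate, were raised by 42 h, and those calls were lost without 34 h replicate 2 (limma adjusted p 0.0732 for each) and without 42 h replicate 1 (0.0743 and 0.0673), that of IRX3 also without 42 h replicate 2 (0.0636). EGR2, a factor of odd-numbered hindbrain segments, had at most 1.49 TPM until 50 h and 46.9 and 38.7 TPM at 72 h, when GBX2 had 112 and 119 TPM. OTX2, at 31.8 and 38.8 TPM, was detected in the same 72 h libraries.

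Other lists give the setting of these changes. Of 9 WNT feedback and target genes 7 were raised by 42 h and 8 by 50 h and again by 72 h. The list's median log2 changes were 2.33, 2.33 and 1.85. The eighth gene at 50 h was ZNRF3, a ubiquitin ligase that removes WNT receptors (0.84 ± 0.20, limma adjusted p 0.0467). That call was lost in 13 of 16 alternatives, among them no filter (0.107), TMM rescaling (0.0502), quantile normalization (0.0521) and the omission of any 1 library but 50 h replicate 2 (0.0707 to 0.250). AXIN2, a negative regulator of the pathway, went from 20.6 and 15.7 TPM (34 h) to 101 and 85.9 TPM (42 h). Of 7 tested caudal progenitor genes 6 were raised at 42 h and 7 at 50 h, and 6 were lowered from 50 h to 72 h, an interval in which GBX2 had no call. Without 72 h replicate 1 the calls of CDX2 (limma adjusted p 0.0856), SP8 (0.124) and TBXT (0.0503) in that interval were lost, which leaves 3. Those of CDX2 and SP8 were also lost without the filter (0.0713 and 0.0680), with the compared times alone (0.105 and 0.0988) and without 50 h replicate 1 (0.0797 and 0.129). CDX2 lost it without 50 h replicate 2 as well (0.115), and SP8 without either 42 h library (0.0508 and 0.0509) and without 72 h replicate 2 (0.153). Pluripotency genes bear on OTX2, which such cells express. Of 9, 1 was lowered at 42 h (PRDM14), 4 at 50 h and 5 at 72 h, and 1 (LIN28A) was raised at 50 h, with median log2 changes of -0.26, -0.58 and -0.93. Of the 4 lowered at 50 h, TDGF1 kept its call in all 16 alternatives. POU5F1 lost it without either 34 h library (limma adjusted p 0.111 and 0.109), without 50 h replicate 1 (0.0941), without the filter (0.0523) and without the mean trend in the variance (0.0964). PRDM14 lost it without 34 h replicate 1 (0.0841) and without 50 h replicate 2 (0.0611), and DPPA4 without 34 h replicate 2 (0.0548). Leaving out either 34 h library thus left 2 of the 4. With the compared times alone POU5F1 (limma adjusted p 0.0756), PRDM14 (0.0591) and DPPA4 (0.0573) all lost it, which left 1. The LIN28A call (limma adjusted p 0.0467) was lost when any 1 of the 8 libraries was left out (0.0628 to 0.213), without the filter (0.104), under TMM rescaling (0.0841) and with the replicate number as a block (0.0531). With that block 5 genes, FGF2 among them, were lowered at 50 h and 0 raised, and from 50 h to 72 h 5 were lowered in place of 3. Of these 3, DPPA4 lost its call without either 72 h library (limma adjusted p 0.0766 and 0.0693). PRDM14, a repressor of differentiation genes, returned to 28.8 and 24.5 TPM at 72 h from 7.28 and 8.56 TPM at 42 h, while OTX2 stayed low. The list's summed level was 3402 to 3405 TPM (34 h), 2828 to 2964 TPM (42 h), 2456 to 2631 TPM (50 h) and 1625 to 1716 TPM (72 h), with 0 of the 9 listed at 0 in any library. Its part in the fall of OTX2 was not tested.

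Markers of mesoderm, endoderm, neural crest, eye and pineal gland were low, and pan-neural genes were not. Of 9 pan-neural genes 2 were raised at 42 h, 3 at 50 h and 7 at 72 h. The list's sum went from 642 to 652 TPM at 34 h to 1139 to 1237 TPM at 72 h. The sum of 7 mesoderm markers was between 1.79 and 6.20 TPM in every library, highest at 42 h, and MSGN1 was listed at 0 in all. The sum of 6 endoderm markers went from 17.2 to 18.2 TPM at 34 h to 6.93 to 8.08 TPM at 72 h, most of it FOXA2 at 34 h, and SOX17 was listed at 0 in all libraries. Of 3 tested mesoderm genes 0 were called at 42 h, MIXL1 was raised and PDGFRA lowered at 50 h, and PDGFRA was lowered at 72 h. No library had more than 1.99 TPM of either. The 50 h calls of both (limma adjusted p 0.0232 and 0.0313) and the 72 h call of PDGFRA (0.0219) were lost without any 1 library of the times compared (0.0606 to 0.155). Of 3 tested endoderm genes CXCR4, a chemokine receptor, was raised at 42 h, AFP and FOXA2 were lowered at 50 h, and at 72 h all 3 were called, CXCR4 raised and the others lowered. FOXA2, a forkhead factor of endoderm and floor plate, had 11.9 and 13.4 TPM at 34 h, then 7.02 and 7.73 (42 h), 5.42 and 6.03 (50 h) and 0.575 and 0.866 TPM (72 h; log2 change -2.99 ± 0.18, limma adjusted p 1.91e-05). The 50 h call of FOXA2 (limma adjusted p 0.0125) was lost without either 34 h library (0.0598 and 0.105) and without 50 h replicate 1 (0.0778). That of AFP (0.0147) was lost without either 34 h library (0.108 and 0.0607) and without 50 h replicate 2 (0.0637). The 42 h call of CXCR4 (limma adjusted p 0.0102) was lost without 34 h replicate 1 (0.0761) and without either 42 h library (0.0784 and 0.0677). The sum of 7 neural crest markers was between 4.72 and 14.1 TPM, highest at 72 h. Of 4 tested genes 0 were raised and 1 lowered at 42 h, 1 raised and 1 lowered at 50 h, and 2 raised and 1 lowered at 72 h, with median log2 changes of 0.17, 0.23 and 1.14. The lowered gene was FOXD3 (limma adjusted p 0.00894 at 42 h). FOXD3 is also expressed in pluripotent cells, and its 42 h call was lost without any 1 of the 34 h and 42 h libraries (0.0538 to 0.0876) and with a pseudocount of 0.1 (0.0988). SNAI2, a zinc finger repressor of migrating crest cells, had 0.339 and 0.360 TPM at 34 h, then 1.21 and 0.740 (42 h), 2.36 and 2.74 (50 h) and 6.99 and 5.19 TPM (72 h). It was raised at 72 h (2.38 ± 0.24, limma adjusted p 0.000315) and at 50 h (0.0121), the 50 h call being lost without any 1 of the 34 h and 50 h libraries (0.0547 to 0.0716). PAX3, a factor of crest and dorsal neural tube, was raised at 72 h (2.29 ± 0.26, limma adjusted p 0.000572), from 0.269 and 0 TPM at 34 h to 4.81 and 4.24 TPM. The 7 eye and pineal markers, for tissues in which OTX2 is also active, summed to between 2.02 and 3.44 TPM with TYR listed at 0 in all, and their 1 tested gene was not called in any contrast.

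The nearest protein coding neighbours on each side, found in GENCODE release 29, were examined because of the size of the changes of OTX2 and GBX2. Beside GBX2, AGAP1 lay 33.4 kb away and did not pass in any contrast (0.14 ± 0.22 at 42 h and 0.48 ± 0.22 at 72 h, limma adjusted p 0.879 and 0.157). ASB18, 26.5 kb away, was under the filter. Beside OTX2, TMEM260 at 149.3 kb had a log2 difference of 0.00 ± 0.15 and EXOC5 at 390 kb one of 0.19 ± 0.15 at 42 h (limma adjusted p 1 and 0.701). Neither passed at 50 h or 72 h. Beside OTX1, EHBP1 had no call, and WDPCP was lowered at 72 h (-1.04 ± 0.18, limma adjusted p 0.00483) while OTX1 was higher than at 34 h in both libraries. Beside GBX1, AGAP3 was raised at 72 h (0.93 ± 0.15, limma adjusted p 0.00345) and at 50 h (0.64 ± 0.15, 0.0461), the latter call being lost in 14 of 16 alternatives (0.0502 to 0.251), and ASB10 was listed at 0 in all libraries. These genes were chosen by position, outside the rule for named genes.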

How the data were processed

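The data were bulk RNA sequencing values of ESI017 cells, 8 libraries in all. The authors deposited TPM per Ensembl gene. The submitters' processing notes name Salmon 1.9.0 and GRCh38; the annotation, the filters and the step from transcripts to genes are not given in the sources used here. TPM carries no depth, so no counting interval was computed.

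The 37951 Ensembl rows were summed to 35940 symbols, and log2(TPM + 1) was fitted with limma 3.58.1 in R 4.3.3 (1 mean per time point, trended variance, 4 residual degrees of freedom, Benjamini-Hochberg over 14908 genes, two-sided), after a check on simulated data. Log ratios were tested by exact permutation in Python 3.11.15 with NumPy 2.4.6. TMM factors were computed from TPM by a direct implementation.

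Replicate numbers are batches in the labels, so they pair libraries; replicate differences correlated at 0.0949 to 0.195 across genes among 34, 42 and 50 h, and at -0.104 to -0.0445 between 72 h and the others. Named genes were the members, all list genes, and the 5 nearest courses per tested member. The members and the lists were chosen with earlier results of these data known. Alternatives covered the pseudocount, filter, scaling, variance trend, compared times alone, replicate block, Ensembl rows and each library left out. Results for further genes are not reported here.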

Additional observations from a re-analysis of the deposited data

How the results depend on the processing

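Against 34 h, the calls of OTX2 and GBX2 held in all 16 alternatives, with limma adjusted p for OTX2 of 0.00142 to 0.0307 at 42 h, 0.000731 to 0.0207 at 50 h and 0.000113 to 0.00397 at 72 h, and for GBX2 of at most 0.00212. OTX1 at 72 h (0.62) passed without the mean trend in the variance (0.0319). The replicate block changed no call of a member, and each ratio test stayed on its side of the threshold in its 10 alternatives. Leaving out a library raises the smallest p possible for 34 h against the later libraries. Permuting within replicates raises it for both kinds of test, so that under this alternative no ratio test could pass after adjustment. Differences between later times changed sign when a library was left out: OTX2 from 42 h to 50 h ranged from -0.41 to 0.18 (0.019 without 42 h replicate 2, 0.18 without 50 h replicate 1) and from 50 h to 72 h from -0.51 to 0.087 (without 50 h replicate 2). From 50 h to 72 h GBX2 ranged from -0.19 (without 50 h replicate 2) to 0.23, with -0.0202 without 72 h replicate 2, and OTX1 from -0.14 (without 72 h replicate 2) to 0.19, with -0.093 without 50 h replicate 2.

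With the compared times fitted alone, called genes numbered 171 (42 h), 431 (50 h), 367 (50 h to 72 h) and 0 (42 h to 50 h). With a library left out they were 161 to 372 (42 h), 398 to 793 (50 h), 1867 to 3629 (72 h), 1 to 8 (42 h to 50 h) and 316 to 911 (50 h to 72 h). From 42 h to 50 h, 14 genes became 8 without the filter, 27 without the mean trend, 7 with the replicate block and 4 with Ensembl rows apart. With the replicate block the anterior neural list had 2, 4 and 1 called genes (42 h, 50 h, 50 h to 72 h) in place of 1, 2 and 2, the boundary list 2 at 50 h in place of 1, the hindbrain list 0 from 42 h to 50 h in place of 1, and the pluripotency list 2 at 42 h in place of 1. From 50 h to 72 h the mesoderm list then had 0 in place of 1 and the neural crest list 1 in place of 2. The cause of these differences was not tested. Read depth is unknown, so GBX1, OTX1 and other genes near 0 carry an error that these 2 libraries per time point show only in part.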

Other observations

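The summed level of the 4 members stayed between 136.4 and 169.8 TPM while OTX2 and GBX2 exchanged places. It was 169.8 and 152.5 TPM at 34 h, then 143.1 and 136.4 (42 h), 165.9 and 149.1 (50 h) and 144.7 and 159.2 TPM (72 h). Both 42 h libraries lay below all others, and the libraries of 34, 50 and 72 h overlapped.

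WNT8A, a ligand gene of the caudal progenitor list, was the member of that list that went on rising. It had 0.402 and 0.454 TPM at 34 h, then 2.12 and 1.26 (42 h), 11.2 and 7.63 (50 h) and 49.4 and 45.8 TPM (72 h), while CDX1, CDX2, EVX1, NKX1-2, SP8 and TBXT were lowered from 50 h to 72 h. Of these, CDX2, SP8 and TBXT lost that call without 72 h replicate 1 (limma adjusted p 0.0856, 0.124 and 0.0503). CYP26C1, which breaks down retinoic acid, had at most 0.154 TPM until 50 h and 36.8 and 22.1 TPM at 72 h.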
